A study of Mus musculus with 6 samples.

Results

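Glycolysis turns glucose into pyruvate and, where pyruvate is kept out of the mitochondrion, into lactate. The 10 genes described here follow that route from end to end: the glucose transporters Slc2a1 (GLUT1) and Slc2a4 (GLUT4), the hexokinases Hk1, Hk2 and Hk3, the regulatory enzyme Pfkfb3, the phosphoglycerate kinase Pgk1, the lactate dehydrogenase subunit Ldha, the pyruvate dehydrogenase kinase Pdk1 and the lactate exporter Slc16a3 (MCT4). They were picked by gene symbol, and all 10 had a row among the 18749 gene rows of each library.

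Whole aortas came from Apoe-/- mice, which lack apolipoprotein E, and every mouse had been infused with angiotensin II (Ang II) for 28 days. Control recipients had been given Apoe-/- bone marrow and Sept2C111A recipients Apoe-/-Sept2C111A bone marrow, with 3 libraries in each group. Both hosts were Apoe-/-, so the Sept2C111A allele came with the marrow, and the cells of the wall itself kept the host genotype. The sources used here do not give age, sex or the conditioning before transplant. The series concerns SNO-Septin2, S-nitrosylated septin-2, of macrophages during aneurysm of the aorta, and the comparison asks how the aorta's transcripts differ with the donor marrow.

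As background, cells take up glucose through transporters of differing control. GLUT1 sits at the surface of most cells, while GLUT4 is held inside adipocytes and muscle cells until insulin calls it out. Low oxygen raises many glycolytic genes through hypoxia-inducible factor (HIF): GLUT1, hexokinase 2, PFKFB3, PGK1, LDHA, PDK1 and MCT4 are textbook targets. Inflammatory stimuli raise GLUT1, hexokinase 2, PFKFB3 and MCT4 in macrophages, where HIF-1α (gene Hif1a) is also induced. Hexokinase 3 is the isozyme of myeloid cells, with neutrophils among the richest sources.

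The promoter sequences of the members lower at an unadjusted p under 0.05 are shown because HIF binds the short cores ACGTG and GCGTG, and the listed letters let a reader see where these stand. Each run is the 250 bases before the RefSeq start (GRCm38.p6), read 5′ to 3′ along the gene's strand, with cores of either strand in capitals. The windows are chr11:120948817-120949066 (plus strand) for Slc16a3, chr4:119108495-119108744 (plus) for Slc2a1, chrX:106186850-106187099 (plus) for Pgk1 and chr13:55021386-55021635 (minus) for Hk3.
Slc16a3: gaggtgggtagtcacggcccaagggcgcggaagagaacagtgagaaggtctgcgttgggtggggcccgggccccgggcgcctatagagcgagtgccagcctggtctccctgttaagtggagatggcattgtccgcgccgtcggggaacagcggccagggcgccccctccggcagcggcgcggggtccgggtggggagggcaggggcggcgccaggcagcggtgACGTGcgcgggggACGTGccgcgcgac
Slc2a1: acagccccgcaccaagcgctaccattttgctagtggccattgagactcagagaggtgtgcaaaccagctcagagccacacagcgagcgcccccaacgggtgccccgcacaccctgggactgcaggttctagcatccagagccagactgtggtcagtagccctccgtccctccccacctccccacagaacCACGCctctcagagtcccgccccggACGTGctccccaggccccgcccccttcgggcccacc
Pgk1: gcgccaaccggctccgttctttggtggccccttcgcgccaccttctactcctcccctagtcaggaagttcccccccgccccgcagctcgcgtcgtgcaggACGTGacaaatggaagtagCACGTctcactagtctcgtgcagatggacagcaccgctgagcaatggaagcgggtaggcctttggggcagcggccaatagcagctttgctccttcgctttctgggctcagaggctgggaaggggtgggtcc
Hk3: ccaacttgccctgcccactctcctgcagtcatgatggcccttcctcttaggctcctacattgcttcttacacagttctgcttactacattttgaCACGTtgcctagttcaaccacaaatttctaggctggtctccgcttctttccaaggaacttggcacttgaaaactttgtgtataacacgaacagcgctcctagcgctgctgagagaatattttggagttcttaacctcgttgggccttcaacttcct
Slc16a3 held 2 ACGTG matches, which began 27 and 14 bases before the start. Slc2a1 held a GCGTG match on the opposite strand, which began 61 bases before it, and an ACGTG match at 36 bases. Pgk1 held 2 ACGTG matches at 150 and 131 bases, and Hk3 held 1 at 156 bases. Of the 10 genes, 9 had an entry, with 13 windows in all, and 11 of these windows held a core on either strand. The first Ldha window listed held 5 matches, among them 2 CACGTG palindromes that each count on both strands and are also E-boxes. Over all 32851 windows of the table, 38.6% held a core, 16.6% held ACGTG and 6.02% held CACGTG. The 2 annotations differ on some starts. The GENCODE gene coordinates given below start Slc16a3 at 120948480, so its whole window lies within that gene. They start Slc2a1 at 119108711, inside its window. A match is a description of the letters and not a site in use.

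Library totals ran from 17082719 to 20494928 expected counts, and 16747 to 17074 genes had a value above 0. Smooth muscle, endothelial and fibroblast markers were present in every library, with Acta2 (smooth muscle actin) from 2610 to 9173 CPM, read counts scaled to a common library size by TMM. Some libraries stood apart in other tissue. Neutrophil markers summed to 3227 CPM in control 1, against 22.9 to 356 in the other libraries. Red blood cell genes summed to 1684, 70.6 and 1107 CPM in controls and 708, 202 and 221 CPM in Sept2C111A recipients. Sept2C111A 3 held heart muscle transcripts, with Myh6 (cardiac myosin) at 856 CPM against 0.297 to 27.2 elsewhere, and the most brown fat signal, with Ucp1 at 1159 CPM. Control 1 was next in heart transcripts, with the atrial hormone Nppa at 125 CPM. Control 3 held almost no brown fat signal (Ucp1 2.18 CPM) and the least smooth muscle signal, with those genes summing to 6313 CPM. The file deposited for Sept2C111A 3 is headed with the number of a different library, and its deposited assignment was followed.

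The 10 genes had no common direction. In Sept2C111A recipients the lactate exporter Slc16a3, the transporter Slc2a1, the myeloid hexokinase Hk3 and Pgk1 had lower means, the insulin-regulated transporter Slc2a4 had a higher mean, and Hk2, Pfkfb3, Ldha and Pdk1 overlapped broadly between the groups. None of the 10 passed edgeR's quasi-likelihood test after adjustment over 14466 genes, where 0% of genes passed and the smallest adjusted p was 0.316. DESeq2 called 1 of the 10, Slc16a3, as lower, against 3.87% of all genes with an adjusted p in either direction and 2.89% as lower. At an unadjusted p under 0.05 edgeR gave 4 of the 10 as lower and 1 as higher, where 15% of all genes passed (8.83% lower and 6.17% higher). The median log2 fold change of the 10 was -0.22, against 0.00 over all genes tested, with 6 members below 0 and 4 above, where 49.9% of genes lay below 0.

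**Figure D1:**
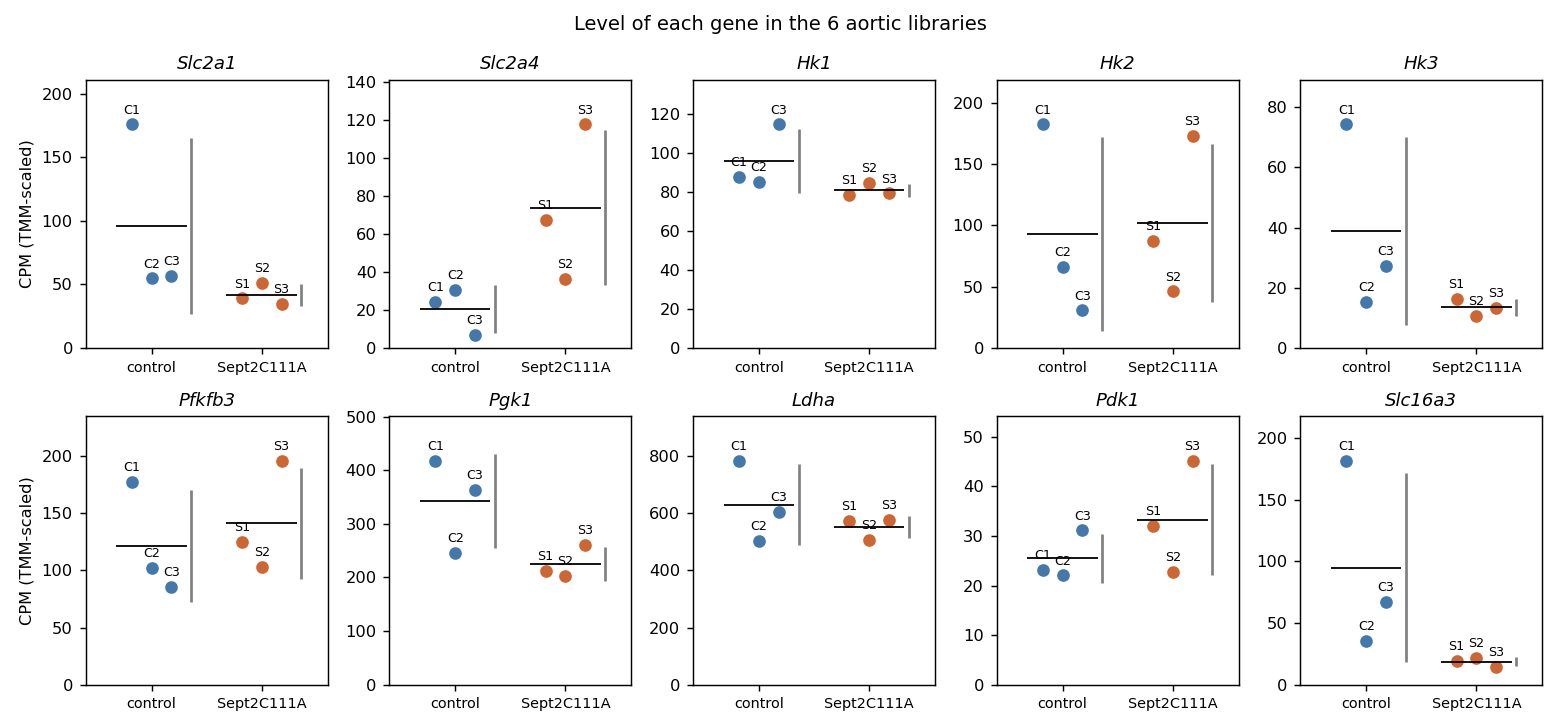
Level of each of the 10 genes (vertical axis, CPM on TMM-scaled library sizes, from 0) in control (blue, C1 to C3) and Sept2C111A (orange, S1 to S3) libraries; black lines are group means and grey bars the mean ± SD over 3 libraries. Control 1 is the highest library for 6 of the genes and Sept2C111A 3 for 3.

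Transport of glucose into the cell was where the genes parted most. Slc2a1 (chromosome 4, 119108711 to 119137983, mm10) stood at 176, 54.8 and 57.0 CPM in controls 1, 2 and 3 and at 39.1, 51.4 and 34.4 CPM in Sept2C111A libraries 1, 2 and 3. The groups did not overlap, but controls 2 and 3 lay just above the highest Sept2C111A library, and control 1 alone was far higher. The means were 95.8 ± 69.2 and 41.6 ± 8.76 CPM (SD, n = 3 each, as throughout), and edgeR put the difference at -1.20 on the log2 scale (SE 0.49, adjusted p = 0.331). Without control 1 it was -0.42.

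Slc2a4 (chromosome 11, 69942539 to 69948188) ran the other way, at 24.2, 30.8 and 6.725 CPM in controls and at 67.6, 36.5 and 118 CPM in Sept2C111A recipients. Every Sept2C111A library lay above every control, with control 3 the lowest and Sept2C111A 3 the highest. The means of 20.6 ± 12.4 and 73.9 ± 40.9 CPM differed by 1.85 on the log2 scale (SE 0.64, edgeR adjusted p = 0.316, DESeq2 adjusted p = 0.0655). With 1 library left out at a time it ran from 1.35 (without Sept2C111A 3) to 2.26 (without control 2), and DESeq2 then called it in 2 of 6 fits, those without control 2 and without Sept2C111A 2. GLUT4 is a gene of adipocytes and striated muscle. All 14 adipocyte genes tested had a log2 fold change above 0 (median 1.01), and their summed level ran from 1657 to 4201 CPM in controls and from 3418 to 7611 CPM in Sept2C111A recipients. Brown fat genes summed to 16.4 to 1070 and 817 to 1911 CPM. Smooth muscle genes summed to 6313 CPM in control 3, the lowest Slc2a4 library, and to 16982 to 25053 CPM elsewhere. Of the 12 smooth muscle genes, 10 had a log2 fold change above 0 (median 0.48). Heart muscle signal was far highest in Sept2C111A 3. Heart muscle genes summed to 272, 28.6 and 15.3 CPM in controls and 33.9, 45.6 and 2006 CPM in Sept2C111A recipients. The skeletal muscle list summed to 50.3 to 98.6 CPM in controls and 98.6, 103 and 477 CPM in Sept2C111A recipients. Its sums rested largely on the enolase Eno3 (35.65 to 82.2 CPM), on Pygm (8.41 to 78.7 CPM) and, in Sept2C111A 3, on Mb (263 CPM). Of the defining skeletal markers, Acta1 was at 0.387 to 1.58 CPM and Myh4 at 0 in 3 libraries, while Ckm was at 45.3 CPM in Sept2C111A 3. The sums therefore say little of skeletal muscle itself. The median log2 fold change of the heart list was 3.02, or -1.15 without Sept2C111A 3. That of the skeletal list was 0.36, or -0.13 without that library. In the same fit the adipocyte, brown fat and smooth muscle medians were 0.95, 0.89 and 0.51, and Slc2a4 was at 1.35. In bulk tissue, fewer cells of a type and less RNA per cell cannot be told apart. Relative to the summed adipocyte genes, a ratio chosen after the values were seen, Slc2a4 stood at 0.577%, 0.872% and 0.406% in controls and 0.888%, 1.07% and 1.98% in Sept2C111A recipients. With control 1 and Sept2C111A 3, the libraries richest in heart transcripts, both left out, the log2 fold change of Slc2a4 was 1.46, and the part of fat or muscle content in it was not tested.

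Within a library the balance of the transporters does not depend on scaling between libraries. Per kilobase of exon, Slc2a1 made up 87.8%, 63.9% and 89.4% of the sum of Slc2a1 and Slc2a4 in controls and 36.5%, 58.3% and 22.5% in Sept2C111A recipients. The groups did not overlap, and the smallest gap was between control 2 and Sept2C111A 2. As the groups of both genes were separate in opposite directions, this separation and its permutation p were fixed and add no support. The difference of means was -41.3 percentage points (exact two-sided permutation p = 0.1, the smallest that 3 against 3 libraries allow, and adjusted p = 0.167 over 5 shares). The related transporter Slc2a3 (GLUT3), the gene of high-affinity uptake in neurons and leukocytes, was at 40.5, 5.42 and 16.5 CPM in controls and 6.15, 3.59 and 4.90 CPM in Sept2C111A recipients (log2 fold change -2.09, SE 0.70, edgeR adjusted p = 0.316). Its order among controls was that of Hk3, of the neutrophil genes and of the red blood cell genes.

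The hexokinases trap glucose in the cell by phosphorylating it, and each of the 3 had its own pattern. Hk1 (chromosome 10, 62268855 to 62379908), the isozyme found in most tissues, was the steadiest of the 10 genes, at 87.75, 85.5 and 115 CPM in controls and 78.8, 84.8 and 79.4 CPM in Sept2C111A recipients. The highest library was 1.46 times the lowest. Its groups did not overlap, yet control 2 and Sept2C111A 2 were almost level, and the log2 fold change was -0.25 (SE 0.15, edgeR adjusted p = 0.435).

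Hk2 (chromosome 6, 82725025 to 82774454), the isozyme of insulin-sensitive and activated cells, had the widest spread within groups of the hexokinases, at 182, 66.3 and 30.7 CPM in controls and 87.5, 46.3 and 173 CPM in Sept2C111A recipients. The library highest in neutrophil genes and the library highest in heart and brown fat genes were the high ones, 1 in each group. Its log2 fold change, 0.14 with SE 0.73 (edgeR adjusted p = 0.935), ran from -0.47 without Sept2C111A 3 to 1.08 without control 1, so no direction was shown.

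Hk3 (chromosome 13, 55005985 to 55021385) stood at 74.3, 15.3 and 27.2 CPM in controls and at 16.4, 10.7 and 13.5 CPM in Sept2C111A recipients. Control 2 lay below Sept2C111A 1, so the groups overlapped. The means of 38.9 ± 31.2 and 13.5 ± 2.86 CPM differed by -1.53 on the log2 scale (SE 0.57, edgeR adjusted p = 0.321, DESeq2 adjusted p = 0.111), which was -0.64 without control 1. The neutrophil markers, like the other lists, were chosen with earlier results of these data known, so their direction is description only. Of 15 listed neutrophil markers 9 were tested, and the others fell below the count filter. All 9 had a log2 fold change below 0 (median -5.36, and -2.64 without control 1), 7 by a DESeq2 call. Among these, Retnlg, Mmp8, Ltf and Trem1 held at most 8, 9, 9 and 15 counts in Sept2C111A libraries. They passed the filter through the controls, so their direction was largely fixed by it. The summed level of all 15 was 99.3 to 3227 CPM in controls and 22.9 to 38.2 CPM in Sept2C111A recipients. S100a8, a defining neutrophil gene, was above 0 in every library and stood at 650 CPM in control 1. Macrophage markers summed to 3396 to 4925 and 2382 to 3542 CPM, with 12 of 16 below 0 and 2 of these by a DESeq2 call. The calls were Itgam, at 985 CPM in control 1 against 47.95 to 126 elsewhere, and Tyrobp. Control 1, the highest Hk3 library, was the lowest library for the defining macrophage markers Adgre1, Csf1r and C1qa, though not for Cd68 and Mrc1. C1qa and Mrc1 had log2 fold changes of -0.03 and 0.12, against -0.92 for Cd68. The part of neutrophil, macrophage or red blood cell content in Hk3 was not tested. Hk3 made up 33.1%, 16.4% and 28.4% of the 3 hexokinases per kilobase in controls and 15.7%, 14.1% and 8.72% in Sept2C111A recipients, a difference of -13.1 percentage points (exact permutation p = 0.1, adjusted p = 0.167). The groups did not overlap, but control 2 and Sept2C111A 1 were nearly level. The Hk1 share (exact permutation p = 0.9) and the Hk2 share (exact permutation p = 0.4) overlapped.

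**Figure D2:**
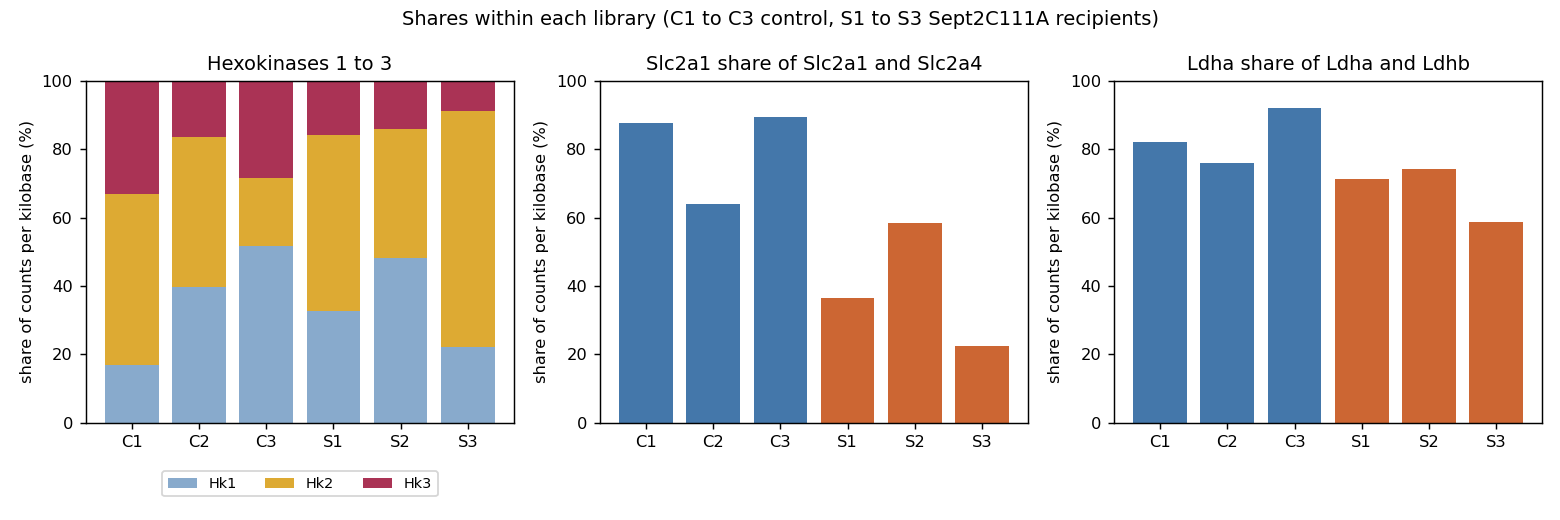
Share of counts per kilobase of exon (vertical axis, %, 0 to 100) in each library, for Hk1, Hk2 and Hk3 (left, stacked), Slc2a1 against Slc2a4 (middle) and Ldha against Ldhb (right); C1 to C3 are controls (blue) and S1 to S3 Sept2C111A recipients (orange). Hk2 takes 69.1% in S3 and 19.8% in C3, and the Slc2a1 and Ldha shares are higher in each control than in any Sept2C111A library.

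In the middle of the pathway stand Pfkfb3 and Pgk1. Pfkfb3 (chromosome 2, 11471433 to 11554077), which makes the activator of phosphofructokinase, was at 177, 102 and 85.45 CPM in controls and 125, 103 and 195 CPM in Sept2C111A recipients. Control 1 and Sept2C111A 3 were again the high libraries, and the log2 fold change was 0.22 (SE 0.35, edgeR adjusted p = 0.772), or -0.08 without Sept2C111A 3. Pgk1 (chromosome X, 106187100 to 106203699), which makes the pathway's first ATP, was at 417, 245 and 363.5 CPM in controls and 211.5, 203.5 and 261 CPM in Sept2C111A recipients. Only control 2 lay within the Sept2C111A range. Its log2 fold change was -0.60 (SE 0.24, edgeR adjusted p = 0.329), between -0.79 and -0.42 with 1 library left out at a time, and DESeq2 called it only without control 2 (adjusted p = 0.00152).

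The pathway's end sets pyruvate's fate. Ldha (chromosome 7, 46841475 to 46855627), the lactate dehydrogenase subunit that favours lactate, was at 781, 502 and 604.5 CPM in controls and 572.5, 506 and 575 CPM in Sept2C111A recipients. Its log2 fold change was -0.19 (SE 0.22, edgeR adjusted p = 0.666), and 0.00 without control 1. Its heart-type partner Ldhb was at 80.5, 75.7 and 24.2 CPM in controls and 110, 82.9 and 193 CPM in Sept2C111A recipients (log2 fold change 1.10, SE 0.52, edgeR adjusted p = 0.361). Ldha thus made up 82.1%, 75.9% and 92.2% of the pair per kilobase in controls and 71.2%, 74.3% and 58.6% in Sept2C111A recipients (exact permutation p = 0.1, adjusted p = 0.167). The extremes were control 3, poorest in brown fat and heart genes, and Sept2C111A 3, richest in both.

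Pdk1 (chromosome 2, 71873224 to 71903858), which shuts pyruvate out of the mitochondrion by blocking pyruvate dehydrogenase, was at 23.2, 22.03 and 31.1 CPM in controls and 32.05, 22.8 and 45.1 CPM in Sept2C111A recipients. Its log2 fold change was 0.39 (SE 0.28, edgeR adjusted p = 0.492), and 0.12 without Sept2C111A 3. With control 1 and Sept2C111A 3 both left out it was 0.04, and the groups overlapped, so no direction was shown.

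Slc16a3 (chromosome 11, 120948480 to 120960868), which carries lactate out of glycolytic cells, had the largest difference of the 10. It stood at 181, 35.5 and 67.4 CPM in controls and at 19.3, 22.05 and 14.8 CPM in Sept2C111A recipients, so that every control exceeded every Sept2C111A library. The means of 94.7 ± 76.5 and 18.7 ± 3.66 CPM differed 5.06-fold, or by -2.34 on the log2 scale (SE 0.60, edgeR adjusted p = 0.316, DESeq2 adjusted p = 0.00482). Without control 1 it was -1.45, and DESeq2, refitted with each library omitted, called it in 4 of 6 fits, losing it without Sept2C111A 1 and without Sept2C111A 3. With control 1 and Sept2C111A 3 both left out it was -1.32 (DESeq2 adjusted p = 0.143). Control 1 and control 3, the controls with the most neutrophil and red blood cell signal, were also its highest libraries. The part of neutrophil or red blood cell content was not tested. The other lactate carrier Slc16a1 (MCT1), used for uptake as well as release, was at a log2 fold change of -0.21 (SE 0.61).

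**Figure D3:**
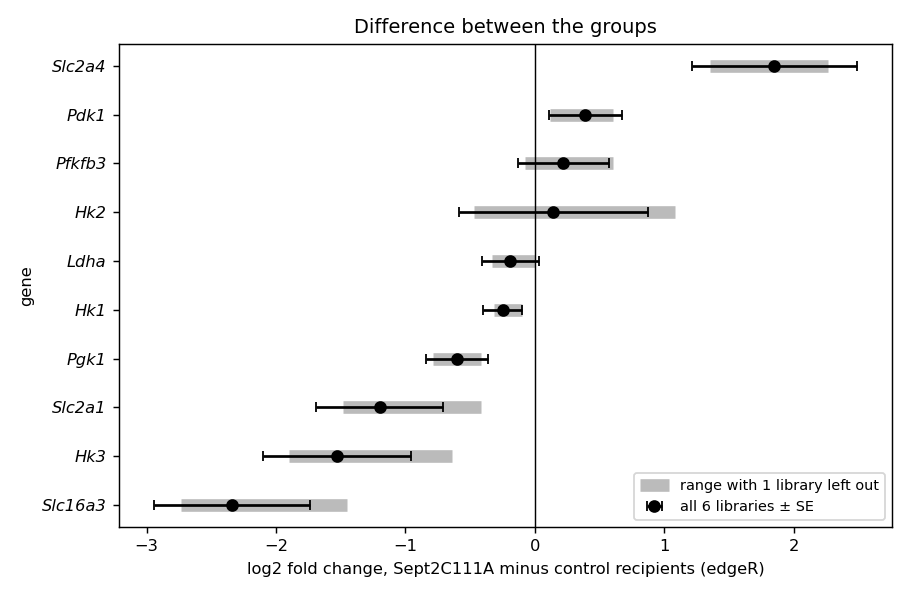
Log2 fold change of each gene, Sept2C111A minus control recipients (horizontal axis), from edgeR with all 6 libraries (points, bars ± SE) and its range when 1 library at a time is left out (grey). Slc16a3, Hk3, Slc2a1, Pgk1 and Hk1 stay below 0 and Slc2a4 and Pdk1 above 0, while Hk2 and Pfkfb3 cross 0 and Ldha reaches 0.00.

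In all, the groups of 4 members did not overlap, Slc16a3, Slc2a1 and Hk1 lower and Slc2a4 higher in Sept2C111A recipients, where 23.1% of all genes were separate (11.9% lower and 11.2% higher). Control 1 was the highest library for 6 of the 10 genes, against 25% of all genes, and Sept2C111A 3 for 3, against 21.8%. The remaining gene was Hk1, highest in control 3. Controls spread more than Sept2C111A libraries for 9 of the 10 genes. The share over all genes was not counted, but controls differed more over the whole table too. Chi-square per degree of freedom between pairs of libraries was 123.8 to 237.5 among controls and 50.3 to 115.9 among Sept2C111A libraries. The highest control of Slc16a3 was 5.10 times the lowest, against 1.49 times among Sept2C111A libraries, and for Hk3 4.86 and 1.54 times. Pdk1 was the exception, at 1.41 and 1.98 times.

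Levels can be ranked between genes only per length. The length used was the union of exons over all annotated transcripts, from 3 for Pgk1 to 21 for Pfkfb3. It can exceed the transcript in use, so the order depends on it. Over the 6 libraries Ldha was highest, at 190 ± 42.7 and 167 ± 11.8 CPM per kilobase in controls and Sept2C111A recipients, followed by Pgk1 at 152 ± 39.1 and 100.4 ± 13.9. Both held that order in 6 of 6 libraries, and Pgk1 stood above Slc2a1 in 6 of 6. The order below was not fixed. Slc2a1, next by the mean over all libraries, was at 27.3 ± 19.7 in controls and 11.9 ± 2.498 in Sept2C111A recipients, where Slc2a4 (21.25 ± 11.8), Pfkfb3 (18.7 ± 6.385) and Hk2 (17.1 ± 10.8) had higher means. Slc2a1 lay above Pfkfb3 in 4 of 6 libraries. Pfkfb3 lay above Hk2 in 4 of 6 libraries, Hk2 above Slc2a4 in 3 of 6 and Slc16a3 above Hk1 in 1 of 6. Slc2a4 lay above Slc16a3 in 4 of 6, Hk1 above Hk3 in 5 of 6 and Hk3 above Pdk1 in 4 of 6. Pdk1 was lowest by the mean over all libraries, at 3.27 ± 0.634 in controls and 4.28 ± 1.44 in Sept2C111A recipients, where Slc16a3 (3.52 ± 0.688) and Hk3 (3.67 ± 0.778) had lower means.

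Genes most like each member over the 6 libraries were found by the root mean square difference of log2 CPM, centred on each gene's mean, among 11582 genes. Hk3 lay closest to Lfng, a glycosyltransferase that modifies Notch, at 0.15, and to Arhgap25, a GTPase-activating protein of blood cells, at 0.15. Slc16a3 lay closest to Lmnb1, lamin B1, and Relt, a TNF receptor relative, both at 0.20, and Slc2a1 to Rnf180 and Gcnt2, both at 0.11. Slc2a4 lay closest to Ptger3, the prostaglandin EP3 receptor, at 0.15 and Aspg at 0.17. Hk2 lay closest to Mapt at 0.22 and to Sod2, the mitochondrial superoxide dismutase, at 0.24. The neighbours of the other members were Cul1 and Dcp2 for Hk1 (0.03 and 0.04), Lrif1 and Rnf114 for Ldha (0.03 and 0.04), Mctp1 and Slc3a2 for Pgk1 (both 0.07), Dusp28 and Hspa12b for Pdk1 (0.08 and 0.12) and Mrps22 and Acrbp for Pfkfb3 (both 0.11). Between members the closest pair was Pgk1 and Ldha at 0.24, and Slc2a1 and Hk3 were at 0.41.

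**Figure D4:**
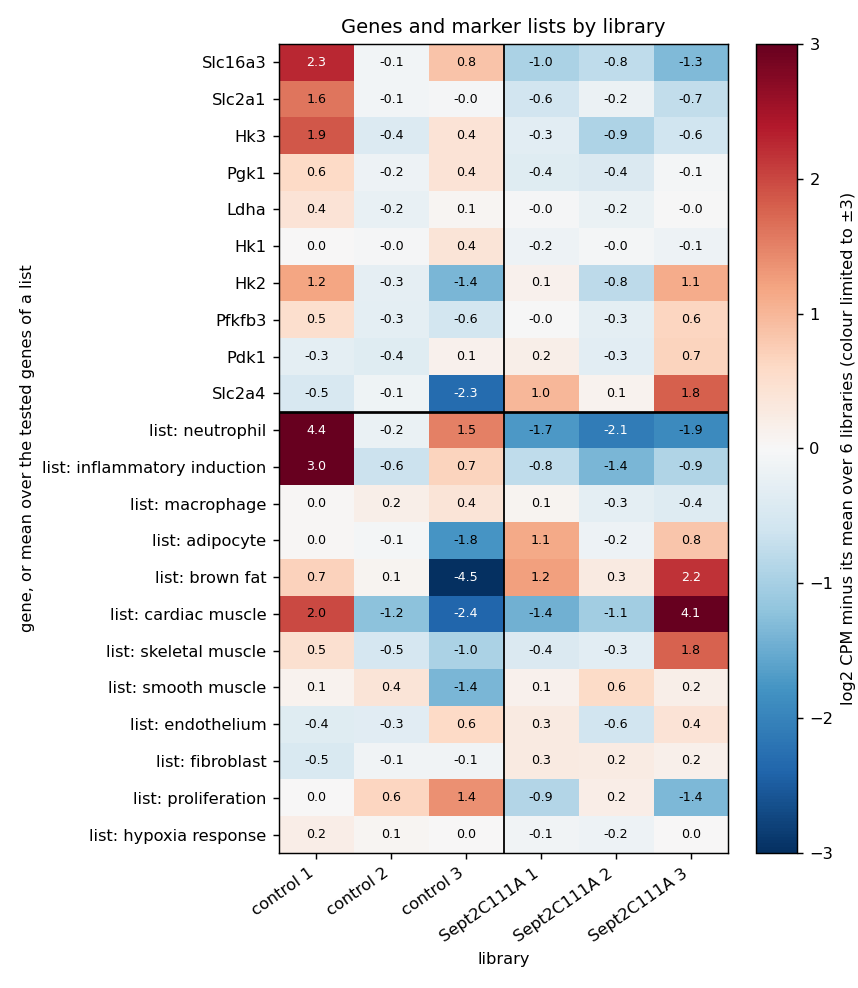
Log2 CPM minus its mean over the 6 libraries (colour, limited to ±3, with the value printed) for the 10 genes and, below the line, the mean over the tested genes of each marker list; columns are libraries. Slc16a3, Slc2a1 and Hk3 are highest in control 1, where the neutrophil list is at 4.4, and Slc2a4 is highest in Sept2C111A 3, where the heart muscle list is at 4.11.

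Other genes of the pathway gave no single direction. Of 26 further glycolysis, uptake and lactate genes, 25 were tested, 16 with a log2 fold change above 0 and 9 below (median 0.23), and 0 passed edgeR or DESeq2. At an unadjusted p under 0.05 edgeR gave 2 higher and 2 lower. Pfkm, the muscle-type phosphofructokinase, stood at 45.05, 65.7 and 43.2 CPM in controls and 78.8, 78.9 and 99.7 CPM in Sept2C111A recipients, without overlap (log2 fold change 0.74, SE 0.20, edgeR adjusted p = 0.316). Pfkfb2, a sister of Pfkfb3, was at 27.0, 25.1 and 25.9 CPM in controls and 31.9, 29.2 and 34.9 CPM in Sept2C111A recipients, and Aldoc, an aldolase, at 1.97 ± 1.03 and 0.617 ± 0.195 CPM. Gapdh, the enzyme just before Pgk1, had a log2 fold change of -0.18 (SE 0.23).

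A list of 13 genes around pyruvate's entry into the mitochondrion joined genes of opposing roles: the carrier and pyruvate dehydrogenase subunits with its activating phosphatases, and the kinases Pdk2, Pdk3 and Pdk4 that block it. Of the 13, 12 had a log2 fold change above 0 (median 0.81), with 0 calls by either tool and 3 at an unadjusted p under 0.05 by edgeR, and Pdk3 (-0.30) was the gene below 0. Pdk2, one of the blocking kinases, was at 31.0, 37.7 and 23.7 CPM in controls and 59.5, 38.3 and 81.8 CPM in Sept2C111A recipients (log2 fold change 0.96, SE 0.31, edgeR adjusted p = 0.316). Mpc2, a subunit of the mitochondrial pyruvate carrier, Pdp2, a pyruvate dehydrogenase phosphatase, and Dlat, the E2 subunit of that complex, had log2 fold changes of 0.99, 1.04 and 0.89. The list's level was 0.83 above its average in Sept2C111A 3 and 0.79 below it in control 3, the libraries with most and least brown fat and heart signal, and its median was 0.48 without the first and 0.51 without the second. The part of that tissue was not tested.

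Hypoxia genes outside glycolysis were evenly divided, 13 above and 13 below 0 (median -0.05), with 2 DESeq2 calls, both lower. Hif1a, the oxygen-regulated subunit of HIF-1, stood at 469, 234 and 277 CPM in controls and 154, 190 and 114 CPM in Sept2C111A recipients, without overlap (log2 fold change -1.10, SE 0.32, edgeR adjusted p = 0.316, DESeq2 adjusted p = 0.0474). It was -0.73 without control 1, and DESeq2 called it in 2 of 6 fits with a library omitted. Ankrd37, a HIF target, was at 3.925 ± 1.045 and 1.42 ± 0.554 CPM (log2 fold change -1.46, edgeR adjusted p = 0.316, DESeq2 adjusted p = 0.0348), and DESeq2 called it in 2 of 6 fits with a library omitted. Vhl, part of the ligase that destroys HIF-1α, was at a log2 fold change of -0.38, and Higd1a, a mitochondrial HIF target, at 0.49. Of the 7 members that are textbook HIF targets, Slc16a3, Slc2a1 and Pgk1 had log2 fold changes below 0 with all libraries and with any 1 left out. Ldha reached 0.00 without control 1, Hk2 and Pfkfb3 turned to -0.47 and -0.08 without Sept2C111A 3, and Pdk1 was 0.12 without it.

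Inflammatory genes, also listed with earlier results of these data known, were lower in far larger steps. Of these, 17 of 18 were below 0 (median -2.87, or -0.69 without control 1). There were 3 DESeq2 calls, 9 genes at an unadjusted p under 0.05 by edgeR and 0 by its adjusted p. Slc7a11, the cystine importer, was at 68.4, 5.73 and 26.9 CPM in controls and 1.26, 0.718 and 1.50 CPM in Sept2C111A recipients (log2 fold change -4.85, SE 0.95, DESeq2 adjusted p = 1.03e-06). Il1b, interleukin-1β, was at 398, 26.8 and 30.6 and at 9.25, 3.76 and 3.62 CPM, and the neutrophil chemokines Cxcl2 and Cxcl3 stood at -6.39 and -9.29 on the log2 scale, with -3.39 and -3.78 the values nearest 0 when a library was omitted. DESeq2 gave no adjusted p for some genes of this list, Il1b and Cxcl3 among them, so its 3 calls are not out of all 18. Cxcl3 held 2 to 9 counts in Sept2C111A libraries and passed the count filter through the controls, so its direction was largely fixed by the filter. Of the 4 members raised by inflammatory stimuli, Slc16a3 and Slc2a1 had log2 fold changes below 0, while Hk2 (0.14) and Pfkfb3 (0.22) were above 0 with all libraries and below 0 (-0.47 and -0.08) without Sept2C111A 3. Neutrophil markers moved with the inflammatory genes: in log2 CPM against each list's average over the libraries, the inflammatory list stood at 3.03 in control 1 and 0.67 in control 3 and the neutrophil list at 4.4 and 1.51, and both lists were below 0 in control 2 and in every Sept2C111A library. The part of neutrophil content was not tested.

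**Figure D5:**
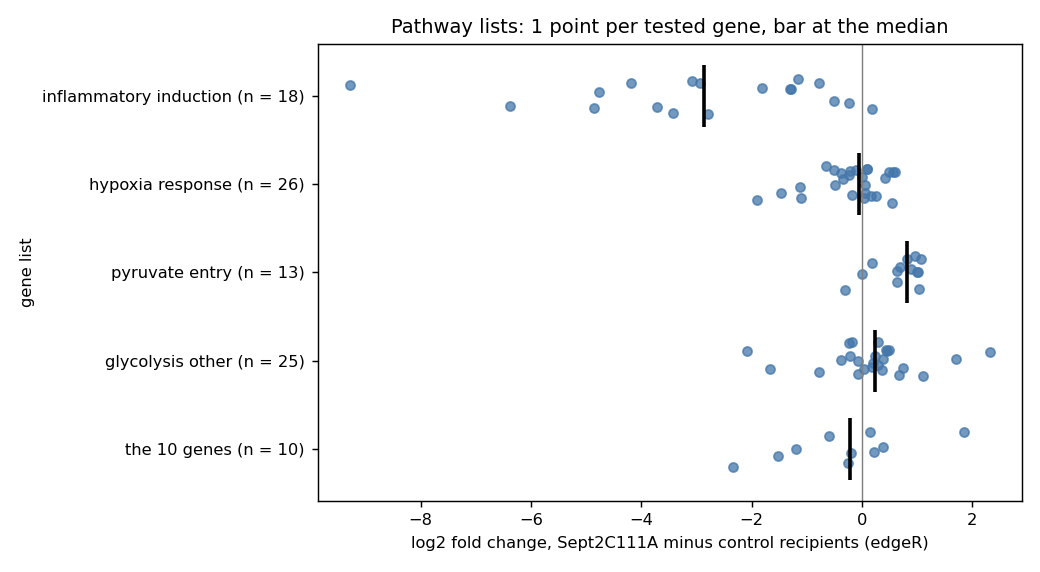
Log2 fold change, Sept2C111A minus control recipients, of every tested gene (points) in the 10 genes and the pathway lists (vertical axis), with the median as a bar. The inflammatory list is centred at -2.87 and the pyruvate list at 0.81, while the 10 genes lie between -2.34 and 1.85.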

How the data were processed

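RNA of whole aortas was captured on oligo(dT) beads after TRIzol extraction, per the labels' protocols. Each deposited file lists expected counts for the genes of 1 library, without normalisation. Per the submitters' processing notes the authors used Bowtie2, RSEM 1.3.1, DESeq2 1.4.5 and build mm10. The sources used here do not give the annotation, read filters or strand setting. RSEM shares out reads with several matches, and Pgk1 and Ldha have processed copies in the genome, so their reads may be split. Without a stated strand setting, reads of genes on the other strand cannot be separated. Such genes overlap Hk1 (Hk1os), Hk2 (Gm17034), Hk3 (Unc5a), Slc2a1 and Pfkfb3.

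Rounded counts entered edgeR 4.0.16 (R 4.3.3): filterByExpr (minimum count 10, which kept 14466 genes and all 10 members), TMM scaling, and the quasi-likelihood F test, two-sided, between the groups, with Benjamini-Hochberg adjustment and a threshold of 0.05. The SE is the log2 fold change divided by the square root of F. DESeq2 1.42.0 and limma 3.58.1 (voom with library weights) were alternatives, and the test was tried on simulated data. Adjusted p-values not given by DESeq2 stayed missing. Coordinates and exon lengths (union of exons) came from GENCODE vM21, of the same build. Promoters came from RefSeq's GRCm38.p6 table. Chi-square values per degree of freedom between libraries of a group were 50.3 to 238, so none repeated another. The design text of the series compares the groups with 3 mice each, and the labels name 3 samples per group. The labels do not themselves say that each sample is 1 animal, so p-values measure only the spread between these samples. Alternatives were other scalings, no filter, the replicate block and each library left out. All per-sample columns were mapped (0 were not). Counts of the members per library ran from 136 (Slc2a4) to 13991 (Ldha).

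The members and the gene lists were chosen with earlier results of these data known. All members are named, with the 4 genes of smallest p of each of 4 pathway lists, the 2 genes most like each member (mean CPM of at least 5, no predicted names), and the share partner Ldhb. Genes of the cell type lists other than the highest of each (such as Nppa, S100a8, Acta1, Retnlg and Itgam), and Gapdh, Slc16a1, Pdk3 and Pdk4, were named after their values were seen.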

Additional observations from a re-analysis of the deposited data

How the results depend on the processing

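With edgeR 0 genes were called in either direction under every alternative run, and limma-voom gave 0, while DESeq2 gave 145 higher and 425 lower. DESeq2 refits with libraries omitted were chosen after seeing the data. They gave 26 higher and 215 lower without Sept2C111A 1, 233 and 417 without Sept2C111A 2, 20 and 96 without Sept2C111A 3, 65 and 265 without control 1, 740 and 1027 without control 2, 75 and 264 without control 3, and 17 and 108 without control 1 and Sept2C111A 3 together. Of the members, DESeq2 called 1 lower with all libraries, and 0 to 4 lower and 0 to 1 higher with 1 omitted. Without control 2 these were Slc16a3 (-2.72), Hk3 (-1.90), Slc2a1 (-1.47) and Pgk1 (-0.79) lower and Slc2a4 (2.26) higher. Members with separate groups ran from 3 to 6 lower and 1 to 2 higher with 1 library omitted, which leaves fewer samples to overlap. In edgeR fits with 1 library omitted Hk2 ran from -0.47 (without Sept2C111A 3) to 1.08, with -0.06 without control 2 and -0.28 without control 3 (DESeq2 -0.47, -0.05 and -0.29). Pfkfb3 ran from -0.08 (without Sept2C111A 3, also by DESeq2) to 0.60, Ldha from -0.33 to 0.00, the median of the 10 genes from -0.34 to -0.15, and the difference in Hk1 share from -11.4 to 6.09 percentage points. The cause was not tested. From counts not divided by exon length, the Ldha share difference was -9.65 in place of -15.4 percentage points, and that of Hk3 -8.3 in place of -13.1. Slc2a1 gave -41.2 in place of -41.3, Hk2 11.7 in place of 14.9 and Hk1 -3.44 in place of -1.75. Of 200 member results under alternatives, 181 kept direction and side of the threshold.

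With the replicate block edgeR called 0 members, with log2 fold changes of -2.05 for Slc16a3 and 1.87 for Slc2a4. Deviations of same-numbered libraries correlated at 0.01, 0.15 and -0.17, and those of other-numbered libraries at -0.21 to 0.16. No pairing by number was seen, but with 3 libraries per group that differ in tissue content the check cannot exclude one.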
